A study of Mus musculus with 45 samples.

Results

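The replication-dependent histone genes lie in clusters, and 67 of the 33924 gene symbols in the deposited RNA-seq tables name a gene of the mouse Hist1, Hist2 or Hist4 cluster. The members were taken by symbol, as every row that begins with Hist1h, Hist2h or Hist4h and varies across the samples of its table. By this rule the ΔPG table gave 66 members of 21979 varying genes, and 65 of 22048 were found in the other table. Hist2h2aa1 was listed at 0 in every sample of both tables, and Hist1h2ap in every sample of the ΔG table. Sequences, places and unique windows are given for all 67 symbols, Hist2h2aa1 included, and RNA values for the members that vary. In the ΔPG table the members comprise 6 linker histone H1 genes, 18 H2A, 17 H2B, 12 H3 and 13 H4 genes.

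The samples are mouse embryonic stem cells (ESCs) of the D3 line, strain 129, grown without feeder cells, in which the locus of the long non-coding RNA 5430416N02Rik was changed by gene targeting. In ΔPG cells the promoter and the gene body were replaced by a PGK-puromycin cassette. In ΔG cells only the gene body was replaced, by a GFP-IRES-puromycin cassette, and the promoter was kept. Heterozygous cells carry the replacement on 1 allele and homozygous cells on both, so that the heterozygous cells, the controls of every comparison between genotypes, carry a cassette too. No wild-type RNA-seq sample was analysed here. The study made more than 1 clone of each genotype, and which clone or clones were sequenced is not stated, so differences between clones and between genotypes cannot be told apart. Cells received DMSO, the vehicle (ES), or retinoic acid (RA, 2 µM) during 48 h, with 3 samples per group and 24 samples in all. The values are regularized log (rlog) values, read counts on a log2 scale that pulls the values of genes with few reads towards their mean, and the 2 lines were transformed separately. The read depth behind them is unknown. The 3 samples of a group are biological replicates per the methods, and whether each was a separate culture is not stated, so p-values measure the spread between these samples.

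Cells duplicate their histones together with their DNA, and most of the supply comes from these clustered genes in S phase. H2A, H2B, H3 and H4 form the core particle around which DNA is wrapped, and H1 binds the linker DNA between particles. Their mRNAs, unlike others, mostly carry no poly(A) tail. They end instead in a short stem-loop that is bound by SLBP, while NPAT, a substrate of cyclin E and Cdk2, activates their transcription. The libraries were made from total RNA after removal of ribosomal RNA, a method that does not select for poly(A) tails.

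The stem-loop is shown here because it is the feature that sets these mRNAs apart and because its letters differ between the classes. In the NCBIM37 (mm9) genome, a perfect stem of 6 base pairs around a loop of 4 bases was looked for on the gene's strand. The search covered the 150 bases after each stop codon, and the stem had to begin with GG and the loop with TT. Of the 67 cluster genes 65 have an annotated stop codon. Such a stem-loop was found in 59 of these (90.8%) and in 14 of 21740 other protein-coding genes (0.0644%). Capitals mark the 16 bases of the stem-loop, and 5 bases are given on each side.
Hist1h1c, H1, chr13:23831381-23831396, plus strand: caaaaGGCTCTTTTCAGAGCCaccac
Hist1h1a, H1, chr13:23856261-23856276, plus strand: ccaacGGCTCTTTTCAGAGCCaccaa
Hist1h2bg, H2B, chr13:23663712-23663727, plus strand: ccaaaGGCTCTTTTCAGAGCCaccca
Hist1h2ba, H2B, chr13:24025599-24025614, minus strand: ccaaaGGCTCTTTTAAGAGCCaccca
Hist1h3c, H3, chr13:23836916-23836931, minus strand: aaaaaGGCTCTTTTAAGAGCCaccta
Hist1h4n, H4, chr13:21923667-21923682, minus strand: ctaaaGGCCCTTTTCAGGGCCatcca
Hist4h4, H4, chr6:136752519-136752534, minus strand: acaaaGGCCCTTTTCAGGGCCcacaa
Hist1h4i, H4, chr13:22132835-22132850, minus strand: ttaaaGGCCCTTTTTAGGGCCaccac
The form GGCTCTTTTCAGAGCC was found in 37 of these genes, namely 5 H1, 14 H2A, 11 H2B and 7 H3 genes. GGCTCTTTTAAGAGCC was found in 9, and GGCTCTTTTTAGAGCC only in Hist2h2ac. The 12 H4 genes with a stem-loop had other stems, with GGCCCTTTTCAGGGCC in 8, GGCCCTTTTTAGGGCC in 2 and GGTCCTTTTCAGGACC in 2. No form was shared by H4 and another class. The 6 genes with a stop codon and without a match were Hist1h2al, Hist1h2an, Hist1h3g, Hist1h4a, Hist2h2bb and Hist2h2be, and no match says only that these letters are not in this window.

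The promoters differ between the classes as well. RefSeq (GRCm38.p6) gave 60 promoter windows of 300 bases, 250 before and 50 after the start of transcription, for 59 of the 67 genes. The octamer ATTTGCAT, the letters bound by Oct1 and by the ESC factor Oct4, was found on either strand in 13 of the 60 windows (21.7%) and in 1.74% of 32851 promoters in all. These 13 were 6 of 16 H2A and 7 of 16 H2B windows, and no H1, H3 or H4 window. The CCAAT box, CCAAT on either strand, was found in 85% of the 60 windows and in 37.4% of all. It was present in every H1, H2A, H2B and H3 window and in 3 of 12 H4 windows. TATAAA was found in 56.7% of the 60 windows and in 13.6% of all. The 30 bases around the octamer are given for Hist1h2bg and Hist1h2ae and for Hist1h2ba and Hist1h2aa, pairs that are transcribed away from each other and share 1 octamer, and for Hist1h2bb, since the RNA of these genes is described below. Capitals mark the octamer, read on the strand of the gene, and the coordinates are those of the promoter window.
Hist1h2bg, chr13:23571150-23571449, plus strand: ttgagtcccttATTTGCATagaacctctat
Hist1h2ae, chr13:23571171-23571470, minus strand: atagaggttctATGCAAATaagggactcaa
Hist1h2ba, chr13:23934107-23934406, minus strand: gaattccccttATTTGCATgcacccagcac
Hist1h2aa, chr13:23934187-23934486, plus strand: gtgctgggtgcATGCAAATaaggggaattc
Hist1h2bb, chr13:23746484-23746783, plus strand: ttgagtctcttATTTGCATaaagcctttga
The octamer begins 59 bases before the start of Hist1h2bg and 128 bases before that of Hist1h2ae, which lies on the other strand.

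In the NCBIM37 annotation the 67 genes fall in 5 places. The Hist1 cluster on chromosome 13 has a first part of 24 genes at chr13:21807632-22135545 and a second part of 31 genes at chr13:23622919-24026720, and Hist1h2al stands alone at chr13:51298057-51298434. The Hist2 cluster holds 10 genes, of which 9 vary in the tables, at chr3:96023839-96082924, and Hist4h4 is at chr6:136752589-136752900. The genes are short and rich in G and C. Among members whose mean rlog value was 3 or more in the ΔPG table (57 members), the median exonic length was 520 bases and the median GC content 59.4%, against 3779 bases and 50.0% over the 11904 genes that passed the same limit. Many members are near copies of each other, so reads can fit several of them. Windows of 100 bases were counted in the histone cluster regions with 100 kb on each side. The rest of the genome was not searched. The share of a gene's windows that occur only once in these regions, called unique here, ranged from 0% to 100%. It was 0% in 6 of the 67 genes, namely Hist1h2ao, Hist1h2ap, Hist1h2bq, Hist1h2br, Hist2h2aa1 and Hist2h2aa2. It was 100% in Hist1h1a, Hist1h1b, Hist1h1t, Hist1h2aa, Hist1h4d, Hist2h2bb, Hist2h2be, Hist2h4 and Hist4h4. Values of members with a low share, such as Hist1h4n (10.9%) and Hist1h2ag (20.7%), are uncertain.

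The labels were checked first. 5430416N02Rik had rlog values of 4.62, 4.58 and 4.59 in heterozygous and of 2.23, 2.21 and 2.46 in homozygous ΔPG cells in ES. The groups did not overlap, and the difference was -2.30 ± 0.12 (SE, adjusted p = 5.95e-06, limma). In ΔG cells in ES, heterozygous samples of this gene were at 5.58, 5.54 and 5.50 and homozygous samples at 2.63, 2.77 and 2.85. All 8 ESC markers (among them Pou5f1, Nanog and Zfp42) fell and all 6 markers of the retinoic acid response rose under RA in both lines and both genotypes. For Pou5f1, which encodes Oct4, the 12 ES samples were between 11.27 and 11.83 and the 12 RA samples between 7.47 and 7.95. The heterozygous ΔPG samples in ES stood apart from the other 9 of their table in how the values followed GC content, which is given below with the results that rest on them.

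Compared per length (mean rlog value minus log2 of the NCBIM37 exonic length in kb), 4 H4 genes led both tables. Hist1h4d had the highest level per length, at 12.50 for ΔPG and 12.41 for ΔG cells. Hist4h4 (12.15 and 11.93), Hist1h4k (11.99 and 12.05) and Hist1h4h (11.94 and 12.02) followed. The order depends on the gene models, which for some members are much longer or shorter than in RefSeq (GRCm38.p6). With the RefSeq gene span as the length, a setting chosen after the data were seen and used for the 58 members of each table with a span of at most 1000 bases, Hist1h4d (12.46 and 12.38) and Hist1h4h (12.05 and 12.13) ranked first and second in both tables, and Hist4h4 was at 11.66 and 11.44. Among the H1 genes Hist1h1a was highest per exonic length (11.78 and 11.51), while per RefSeq span it was at 11.79 and 11.52 and lay under Hist1h1c (11.97 and 11.85) and Hist1h1d (11.88 and 11.72), whose NCBIM37 models have 1560 and 3821 bases against spans of 725 and 776. Among members whose mean rlog value was 3 or more in the ΔPG table, the levels per exonic length were lowest for Hist2h3c1 (2.43) and the testis-type genes Hist1h1t (3.26), Hist1h2aa (5.52) and Hist1h2ba (5.63), whose products serve in male germ cells. The model of Hist2h3c1, of 2955 bases, overlaps Hist2h2aa1, and with its RefSeq span of 664 bases it was at 4.58, above Hist1h1t at 3.57. The replicates lay close together, and the median SD of a member within a group was between 0.062 and 0.086 on the log2 scale.

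**Figure D1:**
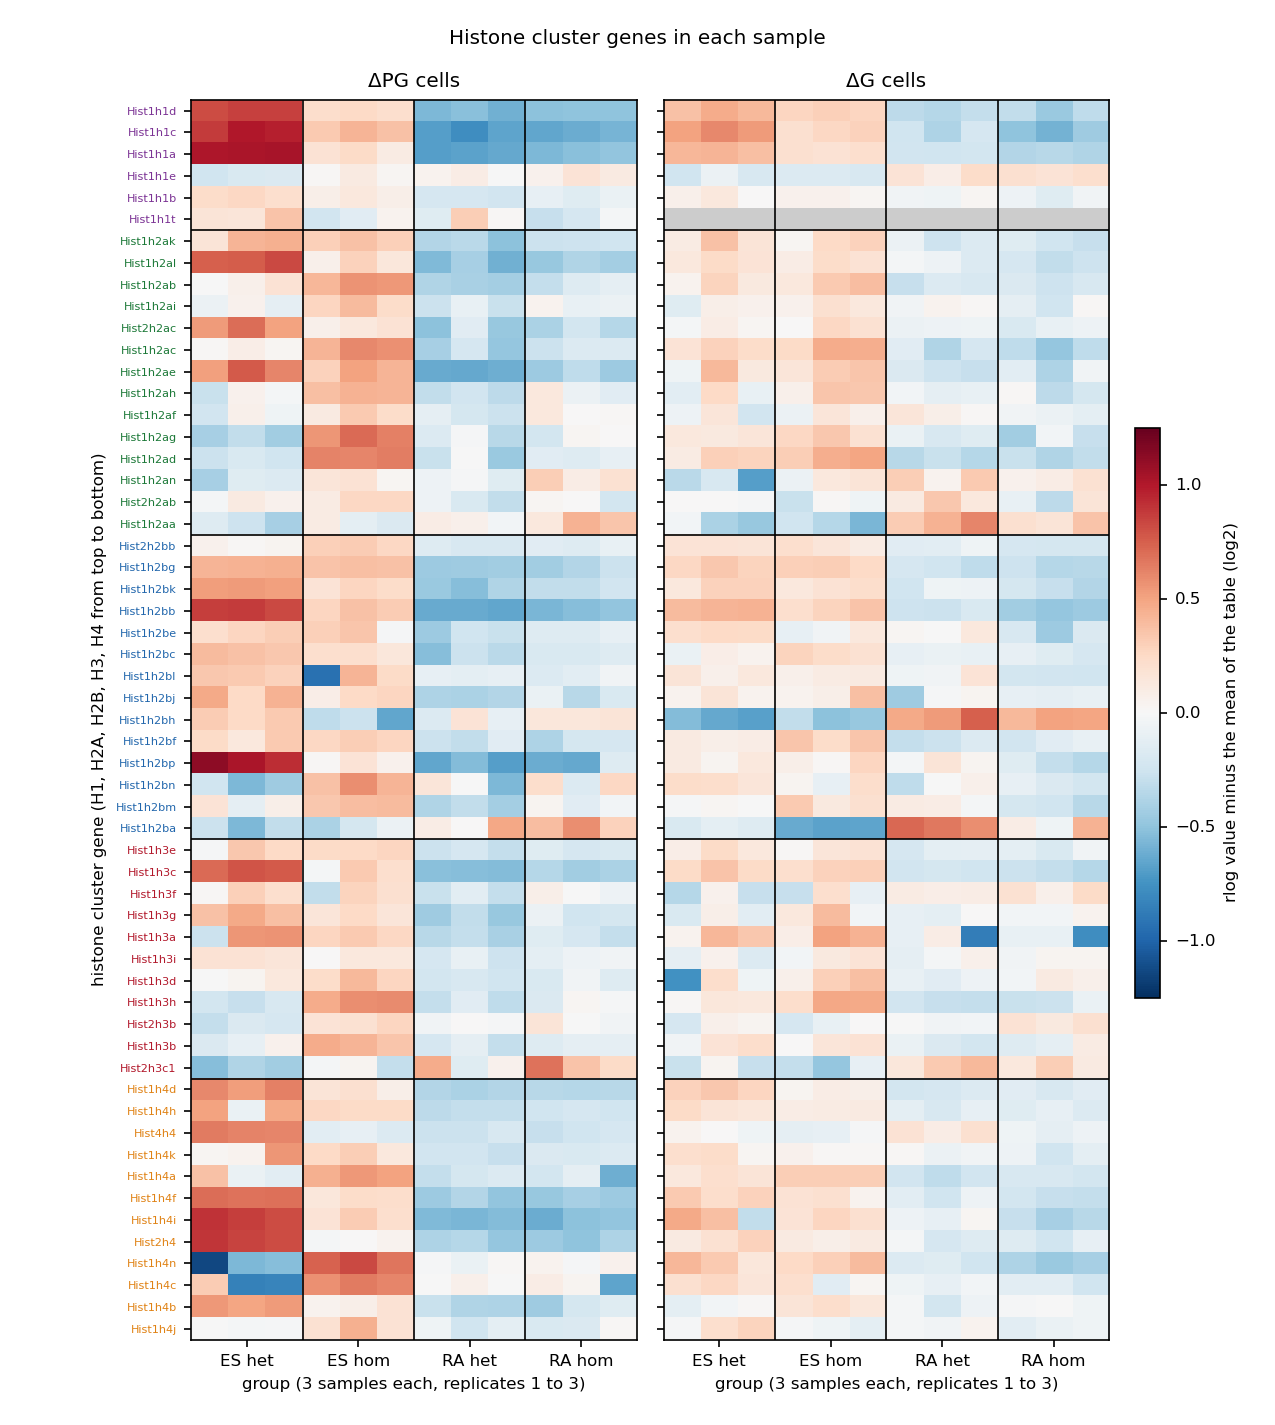
Each row is a member whose mean rlog value was 3 or more in the ΔPG table and each column a sample, and the color gives the sample's rlog value minus the gene's mean over the 12 samples of its table (log2). The grey row, Hist1h1t, had a mean under 3 in the ΔG table. ES samples were above RA samples in most rows, and in ΔPG cells the heterozygous ES samples differed from the homozygous ES samples in both directions.

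RNA of the histone cluster genes was mostly lower in RA-treated cells than in ESCs. In heterozygous ΔPG cells 54 of 66 members, in homozygous ΔPG cells 55 of 66, in heterozygous ΔG cells 45 of 65 and in homozygous ΔG cells 51 of 65 had a difference below 0, where 47.8%, 47.4%, 47.1% and 40.7% of all genes had one. The median difference was -0.41, -0.41, -0.19 and -0.24 in this order, while the median of all genes lay between 0.01 and 0.04. A member is called where limma's test gave a Benjamini-Hochberg adjusted p under 0.1 over all genes of the table and a log2 difference beyond 0.5 in size. With 3 samples against 3, an exact two-sided permutation test of 1 gene cannot go below p = 0.1. As bulk RNA was measured, fewer cells in S phase and less histone RNA per cell cannot be told apart.

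In heterozygous ΔPG cells, 26 members were called lower under RA (39.4% of members, against 13.6% of all genes) and 3 higher (background 18.0%). In homozygous ΔPG cells, 24 were called lower (background 11.3%) and 4 higher (16.5%). In homozygous ΔG cells, 14 were called lower, or 21.5% of members against 12.1% of all genes, and 3 higher (17.0%). In heterozygous ΔG cells the 9 members called lower (13.8%) were close to the background of 11.7%, and 4 were called higher (17.7%). Among genes whose mean rlog value was 3 or more, 24, 24, 9 and 14 members were called lower (42.1%, 42.1%, 16.1% and 25%), against 22.7%, 18.9%, 20.0% and 20.7% of those genes in the order of comparisons above, so in heterozygous ΔG cells the members' share was under the background. The 4 comparisons share no sample. Of the 65 members tested in all of them, 7 were called lower in each, namely Hist1h1a, Hist1h1c, Hist1h1d, Hist1h2bb, Hist1h2bg, Hist1h3a and Hist1h3c. Only Hist1h2ba was called higher in each. A further 23 of the 65 were called in none, and Hist1h4n was called in both directions.

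Short genes as a whole were lower in RA. In every one of the 24 samples, the deviation of a gene from its mean followed exonic length across genes, with a correlation of -0.145 to -0.222 in ES and of 0.151 to 0.217 in RA samples. With a smooth curve against length subtracted from each sample, drawn through the genes whose mean was 3 or more, 9 members were called higher and 19 lower in heterozygous ΔPG cells, against 24.7% and 23.0% of all these genes. Under this setting 6 were called higher and 3 lower in homozygous ΔPG cells (22.4% and 18.6% of genes), 7 and 2 in heterozygous ΔG cells (24.0% and 20.7%), and 5 and 3 in homozygous ΔG cells (24.1% and 21%). In these 3 comparisons the share of members called lower, 5.26%, 3.57% and 5.36%, was under the background, and the members' medians were -0.16, -0.02, 0.10 and 0.01. Only Hist1h1c and Hist1h1d then remained lower in all 4 comparisons, and Hist1h2aa and Hist1h2ba were higher in all 4. The members are themselves 36 of the 217 genes of at most 600 bases in the ΔPG table (16.6%) and entered the curve with the other genes; a curve drawn without them was not computed. With the curve drawn against GC content instead, 23, 36, 22 and 29 members were called lower in the same order of comparisons, and 6, 0, 2 and 2 higher, against 21.2%, 19.3%, 21.3% and 21.8% of genes lower and 24.1%, 22.7%, 24.1% and 24.5% higher. With quantile normalization of the samples, 24, 13, 1 and 5 members were called lower and 1, 1, 3 and 2 higher, where 15.9%, 13.6%, 14.9% and 15.0% of all genes were lower and 15.1%, 13%, 13.8% and 13.4% higher.

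**Figure D2:**
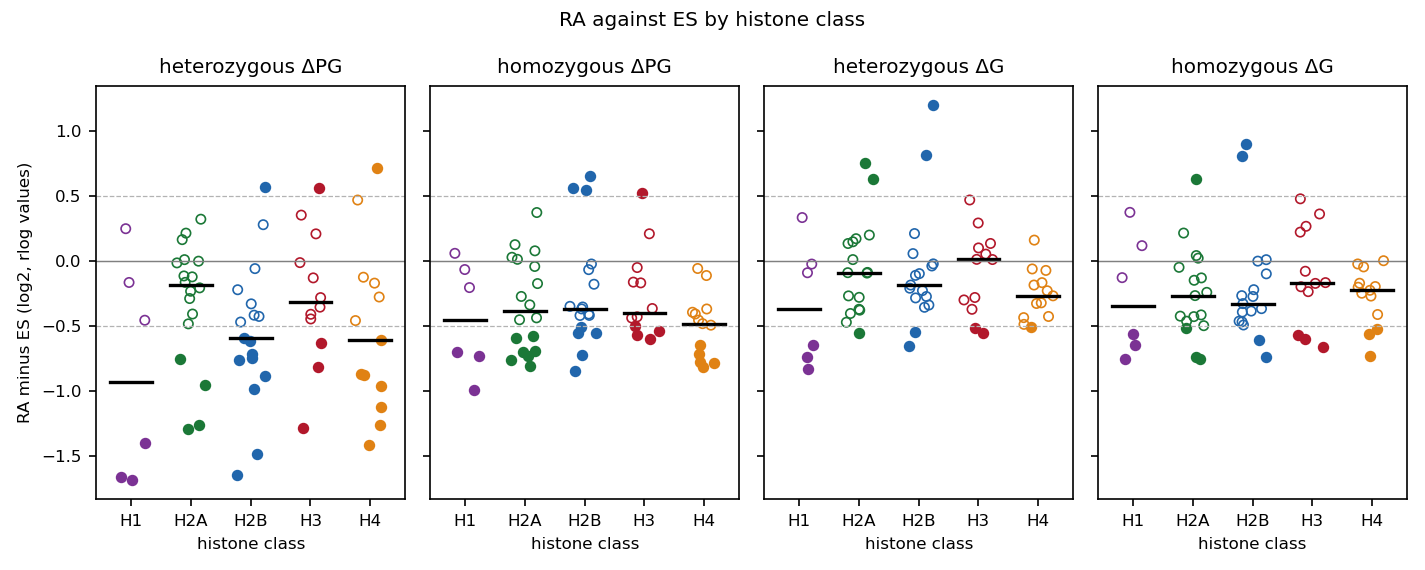
The difference between RA and ES (log2) is plotted for each member by histone class in the 4 combinations of line and genotype, with called members filled, the class median as a black line and the limit of 0.5 dashed. H1 had the lowest median in 3 of the 4 panels, and the spread within a class was wider than the distances between class medians.

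Among the linker histones the members went apart. Hist1h1a, Hist1h1c and Hist1h1d fell in all 4 comparisons, while Hist1h1e had differences above 0 in each and was not called. In heterozygous ΔPG cells, Hist1h1c was at 12.38, 12.50 and 12.48 in ES and at 10.82, 10.73 and 10.84 in RA, a difference of -1.66 ± 0.040 (SE, adjusted p = 5.8e-08). Its differences were -0.99 in homozygous ΔPG, -0.83 in heterozygous ΔG and -0.76 in homozygous ΔG cells, and ES and RA samples did not overlap in any of them.

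Hist1h1a, another somatic H1 gene, was at 12.38, 12.38 and 12.39 in heterozygous ΔPG cells in ES and at 10.67, 10.69 and 10.73 in RA. Its differences were -1.69, -0.70, -0.65 and -0.56 in the order given above, and those of Hist1h1d -1.40, -0.73, -0.74 and -0.64. Hist1h1e, by contrast, was at 10.51, 10.68 and 10.56 in heterozygous ΔG cells in ES and at 10.93, 10.84 and 10.99 in RA. The groups did not overlap, but its differences of 0.25, 0.06, 0.33 and 0.37 stayed under the limit of 0.5. Hist1h1b differed by -0.46, -0.20, -0.09 and -0.13 and was not called. The testis-type Hist1h1t stayed near 3 and was not called. The class median of H1 was -0.93, -0.45, -0.37 and -0.34.

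**Figure D3:**
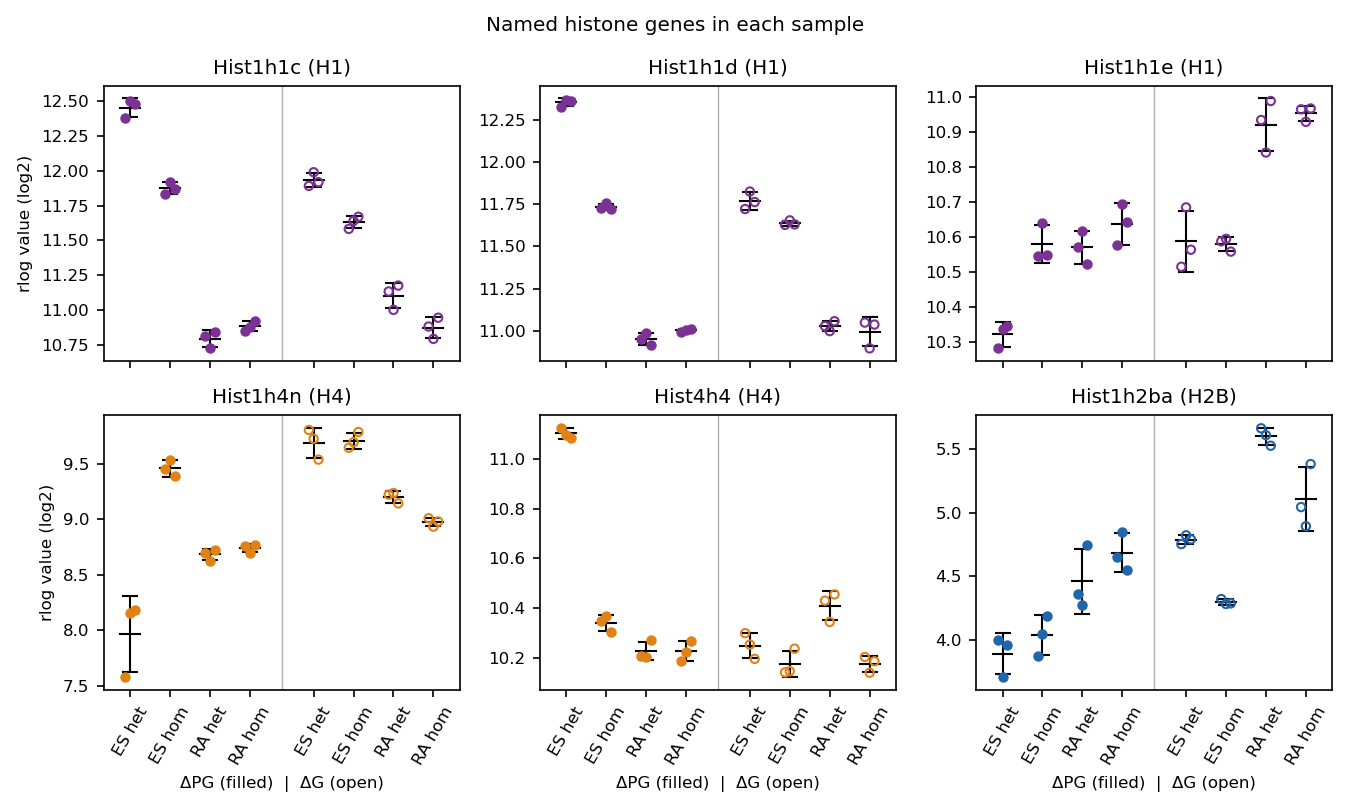
The rlog values (log2) of 6 histone genes are plotted for each sample in the 4 groups of ΔPG cells (filled) and of ΔG cells (open), with the mean and SD of 3 samples, and each panel has its own axis, which does not start at 0. Hist1h1c and Hist1h1d lay lower in every RA group than in every ES group of the same line, and Hist1h2ba lay higher under RA in each genotype.

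H2B genes moved in both directions under RA. Hist1h2bb and Hist1h2bg fell in all 4 comparisons, by 1.49, 0.85, 0.66 and 0.74 on the log2 scale for Hist1h2bb and by 0.88, 0.72, 0.55 and 0.61 for Hist1h2bg. In homozygous ΔG cells, Hist1h2bb was at 9.68, 9.75 and 9.82 in ES and at 9.03, 8.98 and 9.02 in RA. ES and RA samples of both genes did not overlap in any comparison.

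Hist1h2ba, the testis-type H2B gene, rose in all 4 comparisons. In heterozygous ΔG cells it was at 4.75, 4.82 and 4.79 in ES and at 5.66, 5.61 and 5.53 in RA (0.81 ± 0.099, SE, adjusted p = 1.1e-05). Its other differences were 0.57, 0.65 and, in homozygous ΔG cells, 0.81. Its neighbour Hist1h2aa, the testis-type H2A gene that shares the octamer with it, was called higher in ΔG cells only, with differences of 0.76 and 0.63. In ΔPG cells it differed by 0.32 and 0.37, with adjusted p of 0.042 and 0.057. Hist1h2bh rose by 1.20 and 0.90 in ΔG and by 0.56 in homozygous ΔPG cells, and differed by -0.33 in heterozygous ΔPG cells. Its heterozygous ΔG samples were at 7.74, 7.64 and 7.60 in ES and at 8.75, 8.80 and 9.02 in RA.

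No H2A gene was called lower in all 4 comparisons, and 2 H3 genes were. H2A had class medians of -0.19, -0.39, -0.09 and -0.27. Hist1h2ad fell by 0.76, 0.55 and 0.74 in homozygous ΔPG, heterozygous ΔG and homozygous ΔG cells and differed by -0.01 in heterozygous ΔPG cells. Hist1h2ae and Hist1h2al fell by 1.26 and 1.30 in heterozygous and by 0.81 and 0.59 in homozygous ΔPG cells, and were not called in ΔG cells. H3 had medians of -0.32, -0.40, 0.01 and -0.17. Hist1h3c fell by 1.29, 0.57, 0.51 and 0.57. Hist1h3a was called in all 4 comparisons as well, but its call in ΔG cells rests on replicate 3 of the RA samples, at 8.14 and 8.23 where the other RA samples were between 8.91 and 9.10. Without that replicate its differences were -0.27 in heterozygous and -0.43 in homozygous ΔG cells, and the call was lost. The calls of Hist1h3a and Hist1h3c in heterozygous ΔG cells were also lost without replicate 2 of the ES samples, at -0.48 for both, and that of Hist1h3c in homozygous ΔPG cells without replicate 2 of the ES samples, at -0.49. Hist2h3c1 of the Hist2 cluster rose in ΔPG cells (0.56 and 0.52) and differed by 0.47 and 0.48 in ΔG cells.

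H4 had class medians of -0.61, -0.48, -0.27 and -0.23, and 7, 5, 1 and 3 of its 13 genes were called lower. Hist1h4i, in heterozygous ΔPG cells at 10.70, 10.66 and 10.61 in ES and at 9.24, 9.22 and 9.26 in RA, fell by 1.42, and by 0.77 and 0.56 in homozygous ΔPG and ΔG cells. In heterozygous ΔG cells its ES samples were at 10.08, 9.99 and 9.31, and the difference of -0.23 was not called. Hist1h4d, the most abundant member per length, fell by 0.96 and 0.50 in heterozygous ΔPG and ΔG cells and differed by -0.49 and -0.23 in homozygous cells. Its call in heterozygous ΔG cells was lost without replicate 2 of the ES samples (-0.48) or replicate 1 of the RA samples (-0.49). Hist4h4, the only member on chromosome 6, fell by 0.88 in heterozygous ΔPG cells and differed by -0.11, 0.16 and 0.00 elsewhere.

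By place, the calls lower lay mostly in the second part of the Hist1 cluster, which holds 5 of the 6 H1 genes, all but Hist1h1b. In the order of comparisons given above, 15, 16, 9 and 10 of its 31 members were called lower, against 7, 7, 0 and 4 in the first part, where 24 members were tested for ΔPG and 23 for ΔG cells. In the Hist2 cluster 2, 0, 0 and 0 of 9 members were called lower and 1, 2, 0 and 0 higher. The difference between the places was not tested. The 13 H2A and H2B members with the octamer had medians of -0.48, -0.45, -0.27 and -0.46, and the 17 with a promoter window and without it -0.23, -0.27, -0.04 and -0.22, a description in which genes that share a promoter region count separately.

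Between the genotypes, members were called in 1 of 4 comparisons, that of ΔPG cells in ES. Of the 66 members, 13 were called lower in homozygous than in heterozygous ΔPG cells (19.7%, against 6.29% of all genes) and 6 higher (9.09%, against 6.87%). Both directions together make 19 members, against 13.2% of all genes. Among genes whose mean was 3 or more, 11 members were lower (19.3%, against 11.2%) and 6 higher (10.5%, against 12.1%). The median was -0.06, with 30 members above and 36 below 0. The median and the counts of called members moved with the GC trend removed, as given below. By class, H1 had 3 genes called lower and none higher, H2B 5 lower and 1 higher, H4 3 lower and 2 higher, H2A 1 lower and 2 higher, and H3 1 of each.

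Among the H1 genes, Hist1h1a, Hist1h1c and Hist1h1d were called lower. Hist1h1a was at 12.38, 12.38 and 12.39 in heterozygous and at 11.54, 11.60 and 11.46 in homozygous ΔPG cells (-0.85 ± 0.031, SE, adjusted p = 1.5e-06). Hist1h1d differed by -0.62 and Hist1h1c by -0.58. Their homozygous ES samples lay between the heterozygous ES and the RA samples, and this comparison shares its ES samples with those of RA against ES.

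Among the core histones, Hist4h4 was at 11.13, 11.10 and 11.08 in heterozygous and at 10.35, 10.37 and 10.31 in homozygous cells, a difference of -0.76 ± 0.023 (SE). Hist2h4 differed by -0.84, Hist1h2bp by -0.94 and Hist1h2bh by -0.71. Hist1h3c differed by -0.58, and its call was lost without replicate 1 of the homozygous samples (-0.49). In the other direction, Hist1h4n was at 7.58, 8.16 and 8.18 in heterozygous and at 9.45, 9.54 and 9.39 in homozygous cells, the largest difference of any member (1.49 ± 0.15, SE, adjusted p = 0.00016). Hist1h4c differed by 1.06, with replicate 1 of the heterozygous samples at 8.99 where the others were at 7.83 and 7.85, and its call was lost without replicate 3 of the homozygous samples. Hist1h2ag differed by 1.02, Hist1h2bn by 0.87, Hist1h2ad by 0.86 and Hist1h3h by 0.78.

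**Figure D4:**
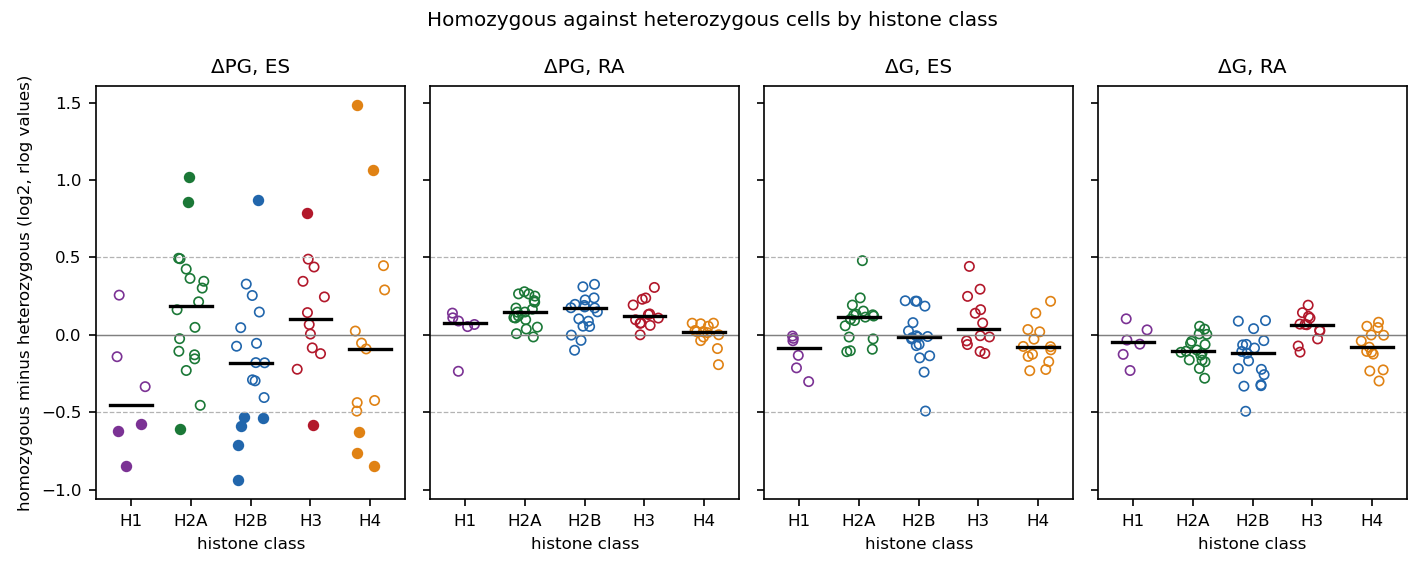
The difference between homozygous and heterozygous cells (log2) is plotted for each member by histone class in the 4 combinations of line and treatment, with called members filled, the class median as a black line and the limit of 0.5 dashed. Called members appear in both directions in ΔPG cells in ES, and none is called in the other panels.

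Of the 6 members called higher, all but Hist1h4c had under 50% unique windows, from 10.9% in Hist1h4n to 47.9% in Hist1h2bn. Among the 15 members whose mean rlog value was 3 or more and under 50% unique windows, 5 were called higher and none lower, with a median of 0.44. Among the 42 with at least 50%, 1 was called higher and 11 lower, with a median of -0.13. Hist1h2bq (-0.59) and Hist1h2br (-0.53), with no unique window and mean rlog values of 0.90 and 0.97, were called lower and are not in these counts. Across these 57 members the difference and the share of unique windows had a Pearson correlation of -0.506 and a Spearman correlation of -0.479, a description over genes that share sequence and libraries. For RA against ES the Pearson correlation was -0.403 (Spearman -0.372) in heterozygous ΔPG cells, which share their ES samples with this comparison, and 1 member was called higher and 23 lower at 50% or more unique windows, against 2 higher and 1 lower under 50%. It was 0.004 in homozygous ΔPG (57 members), -0.038 in heterozygous ΔG and 0.057 in homozygous ΔG cells (56 members).

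GC content moved with this comparison. Over 11904 genes, the difference between homozygous and heterozygous ΔPG cells in ES had a correlation of -0.705 with exonic GC content, while it was 0.251 over the 57 members. The heterozygous ES samples of ΔPG stood apart in this, with correlations between a gene's deviation and GC content of 0.333 to 0.339, against -0.238 to -0.292 in homozygous ES samples and -0.024 to -0.085 in RA samples. With a smooth curve against GC content removed from each sample, 24 members were called higher and 4 lower, against 4.49% and 2.77% of genes, and the median moved to 0.33. Of the 17 called members that had a mean of at least 3, 10 kept their call and none changed sign. Hist1h1a (-0.56), Hist1h1d (-1.03), Hist1h2bp (-0.79) and Hist2h4 (-0.71) were still called lower, and Hist1h4n (1.93), Hist1h2ag (1.51) and Hist1h4c (1.51) higher. Hist1h1c, Hist1h2al, Hist1h2bb, Hist1h2bh, Hist1h3c, Hist1h4i and Hist4h4 lost their call, with differences between -0.12 and -0.27. With the length curve removed, 6 members were called higher and 17 lower, against 11.7% and 11.4% of genes.

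**Figure D5:**
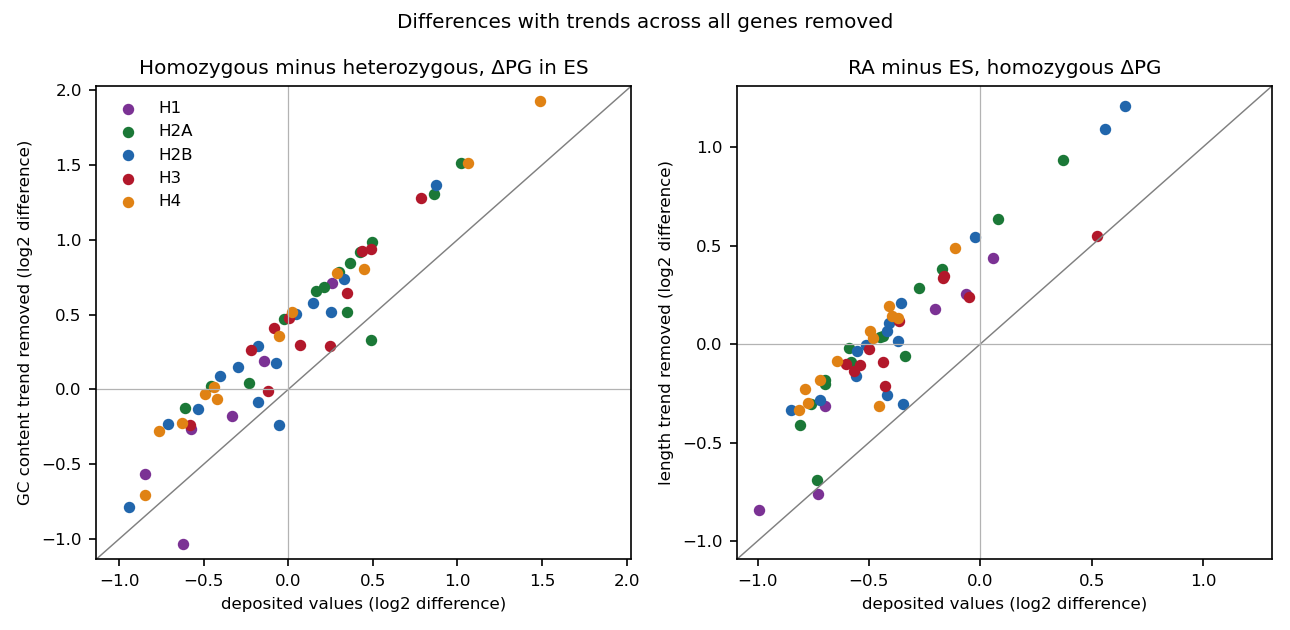
Each point is a member whose mean rlog value was 3 or more, colored by class, with its log2 difference from the deposited values on the horizontal axis and after removal of a trend across all genes on the vertical axis. In the left panel (homozygous minus heterozygous ΔPG cells in ES, trend with GC content) and in the right panel (RA minus ES in homozygous ΔPG cells, trend with length) most points lie above the line of equal values, and the median moved from -0.02 to 0.33 and from -0.44 to -0.02.

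No member was called between genotypes in the other 3 comparisons with limma, where 0.846% (ΔPG in RA), 0.984% (ΔG in ES) and 2.14% (ΔG in RA) of all genes were. At an unadjusted p under 0.05, 27, 21 and 20 members passed (40.9%, 32.3% and 30.8%), against 14.0%, 15.4% and 19.6% of all genes. Smaller differences passed the test on adjusted p alone. In ΔPG cells in RA, 57 of 66 members were higher in homozygous cells with a median of 0.10, and 10 of them had an adjusted p under 0.1 (15.2%, against 2.36% of all genes in this direction), the largest being Hist1h2bm at 0.33. With the length trend removed, the median of the 57 members with a mean of 3 or more moved from 0.11 to 0.05. Of these 57 members 11 changed sign, and 39 were then above 0. In 26 members the homozygous samples were all above the heterozygous samples, against 9.93% of all genes, and in none were they all below (8.87%). In ΔG cells in RA, 44 of 65 were lower with a median of -0.06, and 14 of 15 with an adjusted p under 0.1 were lower (background 6.18%, and 4.85% for higher), among them Hist1h2ba (-0.49), Hist1h2bm (-0.33) and Hist1h1c (-0.23). In ΔG cells in ES the median was -0.01, and 10 members had an adjusted p under 0.1 in either direction (background 5.22%). Of these 6 were lower, among them Hist1h2ba (-0.49), Hist1h1c (-0.30), Hist1h1a (-0.21) and Hist1h1d (-0.13), and 4 were higher, namely Hist1h2bc, Hist1h2bf and Hist1h4b (0.22 each) and Hist1h4a (0.14).

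The change under RA differed between the genotypes of ΔPG cells. Tested as an interaction over the 12 samples, 14 members had a higher (background 6.72%) and 7 a lower (7.19%) RA-minus-ES difference in homozygous than in heterozygous cells. Hist1h1a fell by 1.69 in heterozygous and by 0.70 in homozygous cells, with an interaction of 0.99 ± 0.043 (SE, adjusted p = 2.2e-09). Hist1h2bp had the largest positive interaction (1.09), and those of Hist1h2bh (0.89), Hist2h4 (0.81) and Hist4h4 (0.76) followed that of Hist1h1a. Hist1h4n rose by 0.71 in heterozygous cells, to 8.70, 8.63 and 8.73, and fell by 0.72 in homozygous cells, to 8.76, 8.70 and 8.77, with an interaction of -1.43. The RA samples of both genotypes were thus close to each other and the ES samples were not. Of the 57 members with a mean of at least 3, 29 had their highest group mean in heterozygous and 23 in homozygous ES cells, and 40 had their lowest in heterozygous RA cells. With the GC curve removed, 4 members had a positive and 17 a negative interaction (3.65% and 5.78% of genes). The 4 were Hist1h1a, Hist1h1d, Hist1h2bp and Hist2h4. Of the 12 positive interactions of members with a mean of at least 3, the other 8 lost their call, among them Hist1h2bh and Hist4h4, and all 7 negative ones kept it. Positive and negative interactions numbered 20 and 4 with the length curve removed (12.4% and 12.3% of genes). In ΔG cells 2 members had an interaction (2.38% of all genes), Hist1h2an (-0.59) and Hist1h2bm (-0.55).

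Genes that act with the histone genes were taken from lists of their own. Of 44 genes of S phase and DNA replication, 23, 22, 22 and 24 fell under RA and 2, 0, 0 and 1 rose in the order of comparisons given above. The shares that fell, 52.3%, 50%, 50% and 54.5%, stand against 13.6%, 11.3%, 11.7% and 12.1% of all genes, with medians of the list of -0.52, -0.48, -0.50 and -0.53. Those that rose, 0% to 4.55%, were under the 16.5% to 18.0% of all genes. Mcm5, a subunit of the replicative helicase, fell by 1.25, 0.88, 1.03 and 0.92. The summed level of the list (log2 of the summed 2-to-the-power values) was between 14.82 and 14.94 in the ES samples and between 14.22 and 14.34 in the RA samples, and Mcm5 was its most abundant gene. The part of S phase in the histone values was not tested. Between genotypes 6 of the 44 were called higher (13.6%, against 6.87% of all genes) and 1 lower (2.27%, against 6.29%) in ΔPG cells in ES, and limma called none in the other 3 comparisons. Slbp, Ccne2, Chaf1b and Nasp stand in this list and in one of the next as well.

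Genes of histone mRNA transcription and 3′ end processing formed a list of which 23 were tested. Slbp, the stem-loop binding protein, differed by -0.22, -0.05, -0.08 and 0.06 under RA and was not called. Npat rose by 0.65 in heterozygous ΔPG cells and differed by 0.12, 0.19 and 0.29 elsewhere. E2f1, an activator of S phase genes, fell by 1.13, 0.51 and 0.68 and differed by -0.47 in homozygous ΔG cells. Casp8ap2, a partner of NPAT in the body where histone genes are transcribed, differed by 0.19, -0.30, -0.40 and -0.27 and was not called. In all, 2 rose and 3 fell in heterozygous ΔPG, 0 and 2 in homozygous ΔPG, 1 and 4 in heterozygous ΔG, and 1 and 2 in homozygous ΔG cells. The shares that fell, 13%, 8.70%, 17.4% and 8.70%, were above the share of all genes in heterozygous ΔG cells only, and those that rose, 0% to 8.70%, were under the 16.5% to 18.0% of all genes. Between genotypes, Ccne2 (cyclin E2) was higher by 0.91 in homozygous ΔPG cells in ES, and Sympk (-0.67) and Upf1 (-0.58) were lower.

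The variant histones, whose genes lie outside the clusters, went different ways. H2afz, which encodes H2A.Z, fell in all 4 comparisons, with differences of -0.90, -0.89, -0.68 and -1.04, and H1fx, a linker histone variant, rose in all 4, by 0.57, 1.30, 1.21 and 0.95. H3f3b, one of the genes of H3.3, differed by 0.14, 0.12, 0.06 and 0.19 and H1f0, a linker histone of resting cells, by 0.26, 0.30, 0.29 and 0.18, and neither was called. Of 11 variant genes 1, 1, 2 and 2 rose (9.09% to 18.2%), shares near or under those of all genes, and 4, 1, 1 and 1 fell, of which 36.4% in heterozygous ΔPG cells was above the 13.6% of all genes and 9.09% in the others was not above theirs. In ΔPG cells in ES 2 of the 11 were lower in homozygous cells (18.2%, against 6.29% of all genes) and none higher. Of 17 histone chaperone genes 3, 1, 1 and 1 rose (5.88% to 17.6%) and 1, 1, 0 and 2 fell (0% to 11.8%), in each comparison and direction under the share of all genes. Chaf1b, a subunit of the chaperone that deposits H3 and H4 at replication forks, fell by 0.83, 0.59 and 0.67 in all but heterozygous ΔG cells (-0.45). In ΔPG cells in ES 2 chaperone genes were higher in homozygous cells, among them Asf1a at 1.13, and 2 lower. These shares, 11.8% in each direction, were above the 6.87% (higher) and 6.29% (lower) of all genes. Of the RNAs without a poly(A) tail listed for comparison only 7SK varied in the tables. It was higher by 1.11 in homozygous than in heterozygous ΔPG cells in ES, rose by 0.55 under RA in heterozygous and fell by 0.55 in homozygous ΔPG cells, and was not called in ΔG cells.

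Markers of other cell types also moved with RA. All 7 markers of extraembryonic endoderm rose in the 4 comparisons, with a summed level of 8.74 to 9.70 in ES and of 11.43 to 12.70 in RA samples, Lama1 being the most abundant. In RA their sum was lower in homozygous (11.43 to 11.46 in ΔPG, 11.88 to 11.89 in ΔG) than in heterozygous cells (12.33 to 12.36 and 12.62 to 12.70), and 5 of 7 were called lower in ΔPG and 3 of 7 in ΔG cells. Of 6 fibroblast markers 4, 5, 5 and 4 rose and Thy1 fell in ΔPG cells, with a sum of 5.25 to 5.79 in ES and of 8.66 to 9.66 in RA, Col1a2 being the most abundant and none at 0. Of the neural markers Nes and Pax6 rose in all 4, Nes being the more abundant, Sox1 was at 0 in both tables and Neurog1 in the ΔPG table, and the sum went from 7.28 to 8.48 in ES to 9.18 to 9.54 in RA. Of the 4 markers of a two-cell-like state, 3 Zscan4 genes rose in all 4, from a sum of 5.51 to 6.52 to one of 7.92 to 9.60, Zscan4d being the most abundant and Tcstv1 at 0. Of 3 germ cell markers, Ddx4 rose in all 4, and Dazl and Sycp3 fell in all but heterozygous ΔPG cells. The sum of this list was 6.51 to 7.91 in ES and 7.50 to 8.04 in RA, with Ddx4 the most abundant for ΔPG and Dazl for ΔG cells. Between the genotypes of ΔPG cells in ES, Dazl and Sycp3 were called higher in homozygous cells (sum 7.30 to 7.47, against 6.51 to 6.66), as were 2 of the Zscan4 genes (6.25 to 6.33, against 5.51 to 5.82), while Nes and Col4a1 were called lower. Of the 8 ESC markers, Pou5f1 alone was called in this comparison, lower in homozygous cells (-0.52). The sum of that list was 13.91 to 13.92 in homozygous and 14.09 to 14.13 in heterozygous cells. In RA all 3 Zscan4 genes were called higher in homozygous ΔPG cells (sum 8.63 to 8.96, against 7.92 to 8.10). In homozygous ΔG cells, 2 of the Zscan4 genes were called lower in ES (5.53 to 5.76, against 6.38 to 6.52). All 3 were called lower in these cells in RA (8.70 to 8.77, against 9.43 to 9.60). No germ cell marker was called between genotypes in these 3 comparisons. Of the fibroblast markers in RA, Col1a2 was called lower in homozygous ΔG cells (-1.41), with a sum of the list of 8.66 to 8.82 against 9.54 to 9.66, and Col3a1 in homozygous ΔPG cells (-0.67), with a sum of 8.99 to 9.06 against 9.16 to 9.22. The part of these cell types in the histone values was not tested.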

How the data were processed

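RNA-seq libraries (TruSeq Stranded Total RNA with Ribo-Zero, 100 bp paired-end reads, Illumina HiSeq) were aligned by the authors with TopHat2 2.1.0 to NCBI37/mm9, duplicates were removed with Picard, and reads were counted per gene name with HTSeq 0.6.0 in its strand-specific mode. Removal of duplicates limits the number of distinct fragments that a short transcript can give. The deposited values are log2 rlog values from DESeq2 1.14.1, and whether the transformation was blind to the groups is not given in the sources used here. Depth per sample is unknown, so no counting error was computed. Samples were grouped by their labels.

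Each table was tested on its own with limma 3.58.1 (R 4.3.3; variance trend, no covariates) over all varying genes, with Benjamini-Hochberg adjustment, a limit of 0.1 on adjusted p and of 0.5 on the log2 difference. The fit was tested on simulated data. Trends with exonic GC content and length were removed per sample by lowess (span 0.3) through the genes whose mean rlog value was 3 or more. Gene models were those of NCBIM37. The members and gene lists were chosen with earlier results of these data known. Named were every H1 member, the 2 most abundant members of a class in a table, the 2 called members of a class with the largest difference in a comparison, and the testis-type members. Other members were chosen after their values were seen. The 4C regions are coordinates deposited by the authors, and no value of theirs was used. Alternatives are given in the closing section.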

Additional observations from a re-analysis of the deposited data

Results flagged for a closer look

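For 23 members the change under RA differed between the genotypes of a line, by limma's test of the interaction over the 12 samples of the table, and each value is the RA-minus-ES difference of homozygous cells minus that of heterozygous cells (log2). In ΔPG cells, the H1 genes Hist1h1a (0.99, adjusted p = 2.17e-09), Hist1h1c (0.67, 5.49e-07) and Hist1h1d (0.67, 3.3e-09) had a smaller decrease in homozygous cells. The same direction was seen for the H2A and H2B genes Hist1h2al (0.71), Hist2h2ac (0.50), Hist1h2bb (0.64), Hist1h2bh (0.89), Hist1h2bp (1.09), Hist1h2bq (0.65) and Hist2h2be (0.60), for the H3 gene Hist1h3c (0.72) and for the H4 genes Hist1h4i (0.64), Hist2h4 (0.81) and Hist4h4 (0.76). Hist1h2bq has no unique 100-base window and Hist2h2be a mean rlog value of 2.07, so both are uncertain. With the GC trend removed, 8 of these positive interactions lost their call, namely those of Hist1h1c, Hist1h2al, Hist2h2ac, Hist1h2bb, Hist1h2bh, Hist1h3c, Hist1h4i and Hist4h4, with values between 0.02 and 0.40, while Hist1h1a, Hist1h1d, Hist1h2bp and Hist2h4 kept it. Hist1h2bq and Hist2h2be, with means under 3, were not tested in this setting. The direction was opposite for Hist1h2ad (-0.75), Hist1h2ag (-0.91), Hist1h2bn (-0.63, adjusted p = 0.0522), Hist1h3h (-0.59), Hist1h4a (-0.54, adjusted p = 0.0358), Hist1h4c (-1.25, adjusted p = 0.0173) and Hist1h4n (-1.43, adjusted p = 1.67e-05). These 7 kept their call with the GC trend removed, and Hist1h2bn, Hist1h3h and Hist1h4a lost it with the length trend removed (-0.39 to -0.35).

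In ΔG cells, Hist1h2an (-0.59, adjusted p = 0.0394) and Hist1h2bm (-0.55, adjusted p = 0.00476) had a lower RA-minus-ES difference in homozygous cells. The ΔG samples of Hist1h2bm were at 7.05, 7.09 and 7.06 in heterozygous ES, at 7.17, 7.16 and 7.04 in heterozygous RA, at 7.40, 7.19 and 7.26 in homozygous ES and at 6.84, 6.81 and 6.72 in homozygous RA. Its interaction was no longer called without replicate 1 of the homozygous ES samples. That of Hist1h2an, of whose 100-base windows 16.7% are unique, was no longer called without replicate 3 of either ES group, replicates 1 or 3 of the heterozygous RA samples or replicate 1 of the homozygous RA samples. The heterozygous ES samples of ΔPG, on which all interactions in ΔPG rest, are those whose values followed GC content most closely, and the part of GC content in each interaction was not tested gene by gene beyond the removal of the trend.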

How the results depend on the processing

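Counts of members called moved by more than 1.5 times under the settings given here, and no member called as reported changed direction in the 61 results tested under every alternative (the 2 called members of a class with the largest difference; 975 values, of which 64 lost the call) or, of all members called and with a mean of 3 or more, with the GC or length trend removed. Members that were not called did change sign, 18 and 20 of 56 for RA in heterozygous and homozygous ΔG and 21 of 57 in homozygous ΔPG cells with the length trend removed, among them Hist1h1b (to 0.18, 0.21 and 0.18), and 12 of 57 between genotypes of ΔPG in ES with the GC trend removed. The members' medians turned as well. Without the length trend, that of RA against ES went from -0.25 to 0.10 in heterozygous and from -0.27 to 0.01 in homozygous ΔG cells, and without the GC trend, that between genotypes of ΔPG in ES went from -0.02 to 0.33 and that of the interaction in ΔPG from 0.12 to -0.21. With no limit on the size of the difference, 47 members passed between genotypes in ΔPG cells in ES, 10 in RA, and 10 and 15 in ΔG cells in ES and RA, where 36.1%, 4.58%, 5.22% and 11.0% of all genes passed. For RA against ES, 54 and 53 passed in heterozygous and homozygous ΔPG cells and 44 and 51 in ΔG cells, and 40 and 7 had an interaction in ΔPG and ΔG cells, against 57.4%, 52.0%, 54.5%, 53.4%, 29.1% and 5.28% of all genes in this order. With an adjusted p under 0.05 and a fold over 1.5, RA changed 18 members in homozygous ΔPG and 8 in heterozygous ΔG cells, and 1 interaction was called in ΔG cells. The share of all genes at these limits is not given here, so these counts are not set against a background. Quantile normalization left 14, 4 and 7 members called for RA in homozygous ΔPG, heterozygous ΔG and homozygous ΔG cells. Removal of the GC trend gave 24 and 31 members for RA in heterozygous and homozygous ΔG cells and 1 between genotypes of ΔG in RA. Removal of the length trend gave 9 and 8 for RA in homozygous ΔPG and ΔG cells, and it left 1 interaction in ΔG cells, as did a fit with no variance trend. The cause of these shifts was not tested.

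Leaving out 1 sample at a time gave 0 to 1 members between genotypes of ΔG cells in ES (1 without replicate 1 or 2 of the heterozygous or replicate 1 of the homozygous samples), 0 to 1 in RA (1 without replicate 3 of either genotype) and 1 to 3 interactions in ΔG cells. The other ranges were 19 to 21 between genotypes of ΔPG in ES, 0 in RA, 27 to 33 and 24 to 28 for RA in heterozygous and homozygous ΔPG cells, 11 to 15 and 18 to 20 in ΔG cells, and 19 to 22 interactions in ΔPG cells. Samples share replicate numbers across groups, and the correlation of same-numbered samples' deviations was between -0.03 and 0.09. Whether same-numbered samples were handled together is not stated, and this correlation cannot settle it. With the replicate number as a block, 18, 0, 0 and 0 members were called between genotypes, 29, 28, 13 and 17 for RA, and 21 and 2 had an interaction. The shares of all genes called in these fits are not given here. The counts with 1 sample left out or with the block are therefore not set against a background.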

Other observations

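A separate assay of the series, 4C in ESCs with the bait at the promoter of 5430416N02Rik, lists genome regions in contact with the bait for each of 2 replicates. The methods name NCBI37/mm9 for these reads, but 9 of the 680 regions reach past a chromosome end of that build and 30 of the 680 starts lie within 10 bases of a HindIII site in it, while 636 of 676 starts do once shifted by the distance between GRCm38 and NCBIM37 gene positions. GRCm38 positions of RefSeq genes were therefore used, and the build was not settled otherwise. By these, all 10 Hist2 genes (Hist2h2aa1 included) and Hist4h4 lay within regions of both replicates. Of the 56 members on chromosome 13, Hist1h2ap has 2 RefSeq entries and was left out. Of the other 55, 32 lay in regions of replicate 1, 24 in regions of replicate 2 and 1 in both. Of all protein-coding genes 38.9% lay in regions of both replicates. The regions that hold members were between 1597 and 9426 kb long, so neighbouring members fall in or out of a region together, and the values describe these places and not single genes.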
